A study of Homo sapiens with 6 samples.

Results

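The transcriptome of C4-2B MDVR cells treated with 20 uM PTUPB was set against that of the same cells given DMSO, the vehicle, both after 2 days. The comparison takes 2 of the 6 libraries of the series, 1 per group, so it is described by values alone and carries no test. C4-2B MDVR was derived from C4-2B, a line of human prostate cancer, and resists enzalutamide, and PTUPB is a single molecule that blocks both cyclooxygenase-2 and soluble epoxide hydrolase. The other 4 libraries were treated with 10 uM PTUPB, with enzalutamide (an antiandrogen) at 20 uM, or with enzalutamide together with 10 or 20 uM PTUPB, where the labels give no enzalutamide dose. All groups share the same resistant line and the same treatment time, and the labels name 1 line, with no second line or passage. Genes were compared by the difference of log2(FPKM + 1), PTUPB minus DMSO, where FPKM is fragments per kilobase of exon, scaled between libraries by the authors. Of 58735 genes in the deposited table, 12960 were analysed, those averaging at least 1 FPKM over all 6 libraries, and 27414 were 0 in every library. CFAP20DC lay just inside this limit, at 1.01 FPKM with PTUPB and 1.12 FPKM with DMSO, and ZNF790 just outside it, at 1.15 FPKM with PTUPB and 0.990 FPKM with DMSO.

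Cells answer a load of unfolded protein in the endoplasmic reticulum through membrane sensors, which raise chaperones and degradation enzymes, slow translation and, through the transcription factors ATF4, DDIT3 and ATF3, adjust amino acid supply and cell survival. Androgen signalling, with lineage factors such as FOXA1 and HOXB13, sustains the luminal programme of prostate cancer cells, including prostate-specific antigen, and that programme is the target of enzalutamide. Cyclooxygenase-2 makes prostaglandins from arachidonic acid, and soluble epoxide hydrolase breaks down the fatty acid epoxides that cytochrome P450 enzymes make from it.

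Depth, as fragments recovered from the deposited values, was 22368705 with 20 uM PTUPB and 27337933 with DMSO, within a range of 20156523 to 29450436 over the 6 libraries. Markers of luminal prostate cells were all analysed (13 of 13), and their summed level was 282 FPKM with PTUPB and 1490.2 FPKM with DMSO. Defining markers of other cells were near 0: blood markers summed to 0.191 FPKM with PTUPB and 0.0379 FPKM with DMSO, endothelial markers to 0.0957 FPKM with PTUPB and 0.450 FPKM with DMSO, and basal epithelial markers to 0.128 FPKM with PTUPB and 0.674 FPKM with DMSO. Stromal markers summed to 7.80 FPKM with PTUPB and 15.95 FPKM with DMSO, with VIM the highest of them in DMSO, and 1 of 7 neuroendocrine markers, ENO2, was analysed, with INSM1 at 0 in both libraries. In bulk RNA, fewer cells of a kind and less RNA per cell cannot be told apart, and neither can a change in cell number or cycle phase from a change per cell. The labels do not say whether any library was repeated, and every interval printed for a fold covers counting error only, not the variation between cultures. Whether reads were counted by strand was not given in the sources used here. Values are therefore uncertain for the 58 of 283 named genes whose exons overlap another analysed gene, such as DDIT3 with MARS1 and MBD6, and for genes with close copies, among them KLK2 and KLK3, the UGT2B genes, HSPA1B, HSPE1, FTH1, HNRNPA1, LDHA, PGK1, PPIA, GAPDH, IFITM1, IFITM2, tubulins and histones.

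At a log2 difference of 1 or more, which is at least a 2-fold change on this scale, 1227 genes were higher with PTUPB (9.47% of those analysed) and 1640 were lower (12.7%), together 22.1%. The terms called higher and called lower below mean past this size, and the counts of each list stand against these shares of all genes. The median difference over all genes was -0.01. The scaling between libraries largely fixes this median, so it does not show whether total RNA per cell changed. At a difference of log2 2 or more the counts were 215 higher and 398 lower, and at log2 3 or more they were 55 higher and 96 lower. Protein-coding genes that were called higher had a median level of 16.4 FPKM with PTUPB and 4.94 FPKM with DMSO, and those called lower had 2.496 FPKM with PTUPB and 10.8 FPKM with DMSO. Their median exon lengths were 4777 bases for genes called higher and 4226 bases for genes called lower, against 5271 bases for the protein-coding genes within the threshold. Over bins of mean level from 1 to above 100 FPKM, the share called higher ran from 8.68% to 13.7% and the share called lower from 11.6% to 14.2%.

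**Figure D1:**
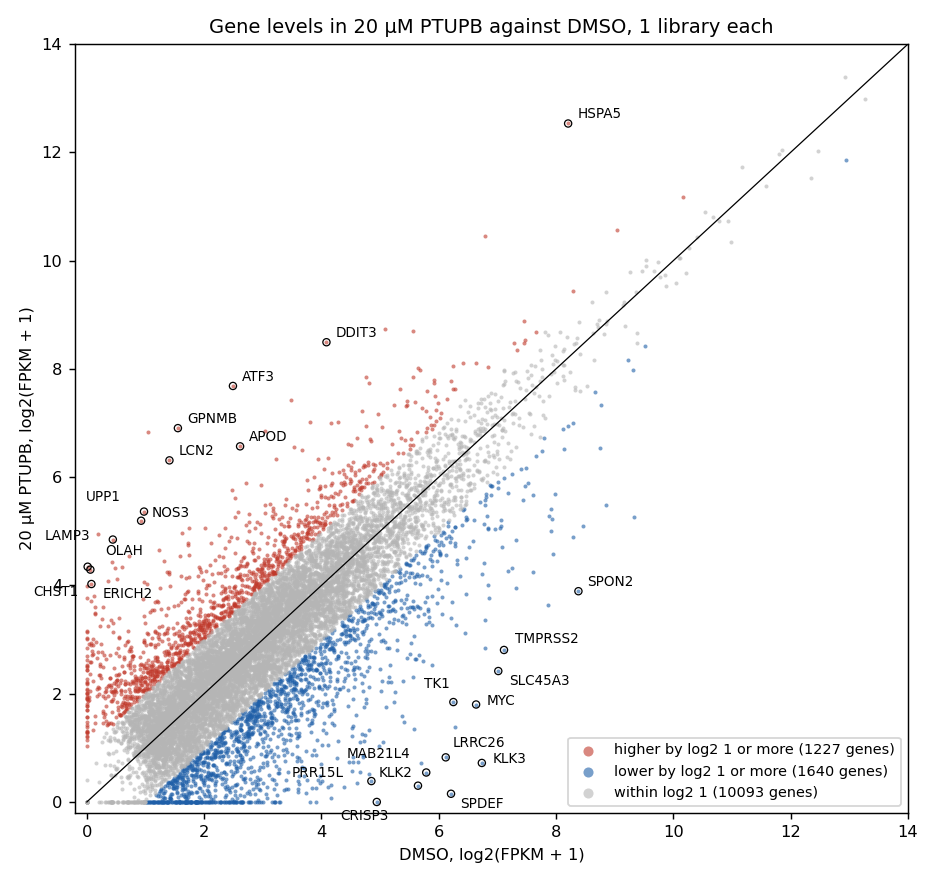
Level of each of the 12960 analysed genes in the 20 uM PTUPB library (vertical axis) and the DMSO library (horizontal axis), both as log2(FPKM + 1), with the line of equal level. Red points (1227) lie higher with PTUPB by log2 1 or more and blue points (1640) lie lower, and circles mark the 12 protein-coding genes with the largest difference in each direction, with HSPA5 far above the line at 5919 FPKM with PTUPB and 294 FPKM with DMSO.

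The protein-coding genes with the largest differences upward joined a few known stress genes to several that are little expressed in DMSO. GPNMB, which encodes a lysosomal and cell surface glycoprotein, had 119 FPKM with PTUPB and 1.93 FPKM with DMSO, a 61.5-fold difference (95% interval 55.3 to 68.5). ATF3 (ENSG00000162772, GRCh38 chr1:212565334-212620777, plus strand), a stress-induced bZIP transcription factor gene, had 205 FPKM with PTUPB and 4.62 FPKM with DMSO (44.3-fold, 40.7 to 48.3). LCN2, which encodes a secreted iron-siderophore carrier, had 78.3 FPKM with PTUPB and 1.65 FPKM with DMSO. All 3 stood above 50 FPKM with PTUPB and under 5 FPKM with DMSO. LAMP3, a lysosome-associated membrane protein gene, was 77.3-fold higher (27.8 FPKM with PTUPB and 0.359 FPKM with DMSO). UPP1, the uridine phosphorylase gene, was 41.6-fold higher at 40.2 FPKM with PTUPB. NOS3, endothelial nitric oxide synthase, stood at 35.6 FPKM with PTUPB and 0.899 FPKM with DMSO, and APOD, a lipid-binding lipocalin, at 93.9 FPKM with PTUPB and 5.12 FPKM with DMSO. For CHST1, a keratan sulfate sulfotransferase gene, the DMSO library held 1 fragment and the PTUPB library 1588, so its ratio of 2009 has an interval from 360.1 to 79413. OLAH, an enzyme of fatty acid chain release, had 1038 fragments with PTUPB and 3 with DMSO (ratio 438, 149 to 2126), and ERICH2 had 217 with PTUPB and 1 with DMSO (ratio 275, 48.8 to 10894).

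On the lower side, prostate epithelial genes and MYC had the largest differences. SPDEF, a prostate-derived ETS transcription factor gene, had 0.111 FPKM with PTUPB, resting on 5 fragments, and 72.95 FPKM with DMSO (659.8-fold lower, 282 to 2033). KLK3 (ENSG00000142515, GRCh38 chr19:50854915-50860764, plus strand), the gene of prostate-specific antigen, had 0.648 FPKM with PTUPB and 105 FPKM with DMSO (163-fold lower). KLK2, its neighbouring kallikrein, had 0.232 FPKM with PTUPB and 49.05 FPKM with DMSO. CRISP3, a secreted cysteine-rich protein gene, had 0 fragments with PTUPB and 1999 with DMSO, which against a floor of 3 fragments per library makes it at least 527-fold lower. These 4 genes all lay under 1 FPKM with PTUPB. SPON2, an extracellular matrix protein gene and the highest of the group in DMSO, had 13.9 FPKM with PTUPB and 332 FPKM with DMSO. LRRC26, which encodes an auxiliary subunit of BK potassium channels, had 0.7702 FPKM with PTUPB and 68.5 FPKM with DMSO. MAB21L4 was at 0.458 FPKM with PTUPB and 54.2 FPKM with DMSO, and PRR15L at 0.307 FPKM with PTUPB and 27.9 FPKM with DMSO. The remaining members of the leading 12, MYC, SLC45A3, TK1 and TMPRSS2, are described with their groups.

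**Figure D2:**
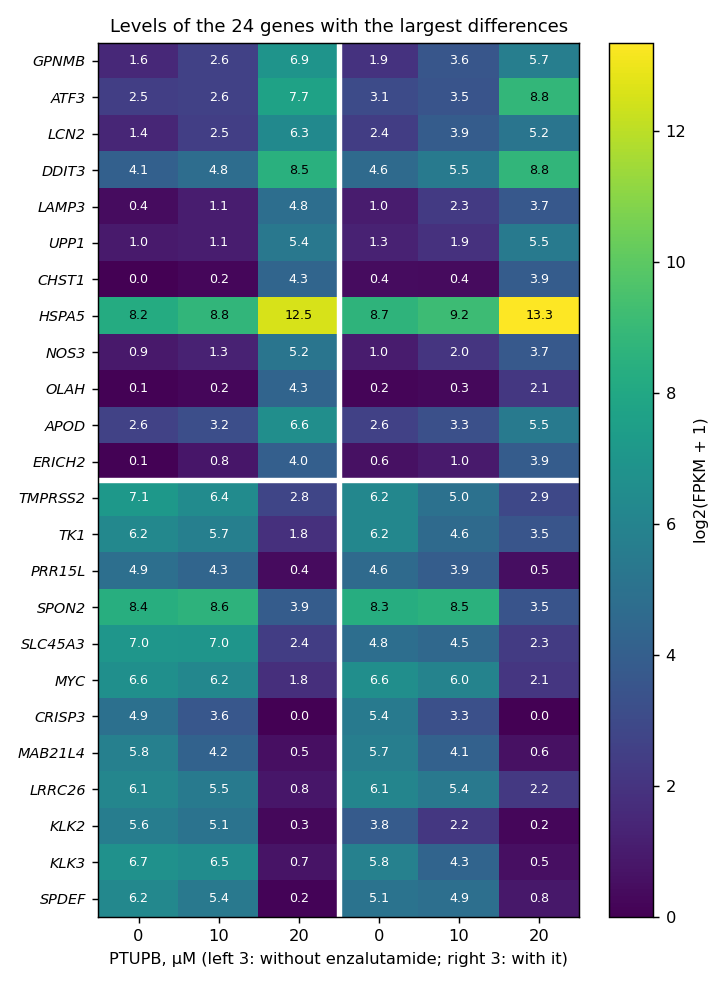
Level, as log2(FPKM + 1), of the 12 protein-coding genes with the largest difference upward (top block) and downward (bottom block) between 20 uM PTUPB and DMSO, in all 6 libraries, at PTUPB doses of 0, 10 and 20 uM without enzalutamide (left 3 columns) and with it (right 3). The columns at 20 uM differ from the rest of their block both without and with enzalutamide, and HSPA5 is the brightest cell of the plot in each.

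Of 22 sensor and bZIP genes of the unfolded protein and integrated stress responses, 10 were called higher with PTUPB and 2 lower, and the median difference was 0.83 against -0.01 over all genes. DDIT3 (ENSG00000175197, GRCh38 chr12:57516588-57521737, minus strand), the pro-apoptotic bZIP factor CHOP, had 359 FPKM with PTUPB and 15.97 FPKM with DMSO, a 22.5-fold difference (95% interval 20.7 to 24.4). PPP1R15A, the stress-induced phosphatase subunit that restores translation by dephosphorylating eIF2, was 11.5-fold higher (18.1 FPKM with PTUPB and 1.57 FPKM with DMSO). TRIB3, a pseudokinase gene downstream of ATF4 and DDIT3, was 5.93-fold higher at 148 FPKM with PTUPB and 24.9 FPKM with DMSO. ATF4 mRNA itself, whose protein output is controlled mainly in translation, had 199 FPKM with PTUPB and 166 FPKM with DMSO, a log2 difference of 0.25 that is below the threshold. The 3 sensors, named here with their values known and not by the rule of size, were all called higher. ERN1 (IRE1), the kinase and RNase, had 37.6 FPKM with PTUPB and 9.004 FPKM with DMSO. EIF2AK3 (PERK), the eIF2 kinase, had 18.8 FPKM with PTUPB and 6.47 FPKM with DMSO, and ATF6, the membrane-bound transcription factor, had 45.7 FPKM with PTUPB and 14.2 FPKM with DMSO. Members did not all lie on one side: CREB3L4, a membrane-bound bZIP factor gene expressed in prostate, had 8.69 FPKM with PTUPB and 58.4 FPKM with DMSO, 6.72-fold lower. The other gene called lower was ATF5, also named with its value known, at 0.688 FPKM with PTUPB and 5.30 FPKM with DMSO.

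HSPA5 (ENSG00000044574, GRCh38 chr9:125234853-125241330, minus strand) was the most abundant of the stress transcripts. It encodes BiP, the main HSP70 chaperone of the endoplasmic reticulum, and had 5919 FPKM with PTUPB and 294 FPKM with DMSO, a 20.1-fold difference (95% interval 19.9 to 20.3). Its fragments made up 2.44% of the PTUPB library and 0.126% of the DMSO library. Of 25 chaperones and folding enzymes of the reticulum, 8 were called higher and 0 lower (median 0.63). DNAJB9, a BiP co-chaperone, was 8.82-fold higher (93.6 FPKM with PTUPB and 10.6 FPKM with DMSO). ERP44, which retains unassembled secretory proteins, was at 66.1 FPKM with PTUPB and 17.1 FPKM with DMSO. HYOU1, a nucleotide exchange factor for BiP, had 161 FPKM with PTUPB and 42.8 FPKM with DMSO, and the disulfide oxidase gene ERO1B had 30.4 FPKM with PTUPB and 8.805 FPKM with DMSO. The lowest member of the list differed by -0.35, so no measured chaperone of the reticulum came near the lower threshold.

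Promoters of HSPA5 and of a few other genes called higher hold the endoplasmic reticulum stress element, CCAAT and CCACG with 9 bases between them, which ATF6 and NF-Y are known to bind. Promoters were read from RefSeq on GRCh38.p14 as 250 bases before to 50 bases after each start, and searched on both strands, for the 9256 of 12960 analysed genes that matched the table. An exact match was found in 4 of 822 promoters of genes called higher (0.487%), in 0 of 1055 of genes called lower and in 10 of 7379 of genes within the threshold (0.136%), and in 22 of all 27305 promoters in the table (0.0806%). The 4 are HSPA5, FICD, ERO1B and SERP1, where FICD and SERP1 were named because of the match and with their values known. FICD, the enzyme that adds AMP to BiP, had 58.4 FPKM with PTUPB and 5.58 FPKM with DMSO, and SERP1, a translocon-associated protein gene, had 114 FPKM with PTUPB and 38.8 FPKM with DMSO. The whole HSPA5 promoter (chr9:125241294-125241593, minus strand) is shown because it belongs to the most abundant of these transcripts, and the other 3 as the match with up to 20 bases on each side, at chr12:108515103-108515161 (plus strand) for FICD, chr1:236282163-236282208 (minus strand) for ERO1B and chr3:150546690-150546746 (minus strand) for SERP1. Capitals mark the match, which in ERO1B and SERP1 lies on the strand opposite to the gene.
HSPA5: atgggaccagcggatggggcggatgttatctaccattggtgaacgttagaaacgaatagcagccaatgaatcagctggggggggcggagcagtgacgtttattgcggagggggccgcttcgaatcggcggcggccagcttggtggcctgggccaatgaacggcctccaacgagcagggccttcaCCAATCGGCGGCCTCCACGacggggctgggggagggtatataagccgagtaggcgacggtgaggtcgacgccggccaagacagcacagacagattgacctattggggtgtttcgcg
FICD: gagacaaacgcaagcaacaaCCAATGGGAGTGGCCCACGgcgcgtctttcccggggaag
ERO1B: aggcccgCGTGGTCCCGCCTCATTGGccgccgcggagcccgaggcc
SERP1: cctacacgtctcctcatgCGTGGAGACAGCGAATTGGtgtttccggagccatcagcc
A second motif, TGATGCAA, is the core of the composite element of C/EBP and ATF factors through which ATF4 and DDIT3 act. It occurred in 12 of 822 promoters of genes called higher (1.46%), 6 of 1055 of genes called lower (0.569%), 31 of 7379 within the threshold (0.42%) and 0.923% of all 27305. Among the 12, FGF21 and FUT1 share the same match, read from opposite strands (chr19:48755450-48755497), so the promoters are not all separate sites. From these 12, 3 are shown for their known link to this response, CHAC1 whole (chr15:40953221-40953520, plus strand), and FGF21 (chr19:48755450-48755497, plus strand) and HERPUD1 (chr16:56931946-56931993, plus strand) with 20 bases on each side, all with the match on the opposite strand. CHAC1, a glutathione-degrading enzyme, was picked for this match and not by size, and had 13.7 FPKM with PTUPB and 4.10 FPKM with DMSO.
CHAC1: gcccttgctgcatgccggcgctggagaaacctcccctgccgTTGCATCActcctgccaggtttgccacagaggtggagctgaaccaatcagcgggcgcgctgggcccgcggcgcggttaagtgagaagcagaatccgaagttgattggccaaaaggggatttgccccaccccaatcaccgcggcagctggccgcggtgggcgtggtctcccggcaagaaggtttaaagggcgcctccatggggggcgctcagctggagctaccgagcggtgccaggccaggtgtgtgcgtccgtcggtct
FGF21: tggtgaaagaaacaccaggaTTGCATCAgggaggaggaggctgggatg
HERPUD1: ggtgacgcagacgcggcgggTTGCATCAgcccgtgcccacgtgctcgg
Among the other motifs counted the same way, the AP-1 element TGACTCA was in 4.38% of promoters of genes called higher, 2.46% of those called lower and 2.41% of those within the threshold, against 4.92% of all promoters. The E2F element TTTGGCGC was in 0.973% of promoters of genes called higher and 1.8% of those called lower, with 1.03% within the threshold and 0.659% of all. For the cAMP response element TGACGTCA the shares were 3.77% higher, 2.65% lower, 3.56% within and 1.98% of all promoters. The E-box CACGTG gave 9.61%, 9.67%, 10.8% and 7.43% in that order, and the sterol element TCACNCCAC gave 1.58%, 0.758%, 1.12% and 1.15%. A match is a description of letters in the window and shows neither binding nor a cause.

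Genes of degradation, translocation and transport out of the reticulum had no member called lower. Of 19 degradation genes 8 were called higher and 0 lower (median 0.69). SEL1L, the scaffold of the HRD1 ubiquitin ligase, had 103 FPKM with PTUPB and 27.3 FPKM with DMSO. HERPUD1, whose product helps assemble that ligase, had 100.1 FPKM with PTUPB and 27.8 FPKM with DMSO, and EDEM1, which marks misfolded glycoproteins for disposal, had 68.7 FPKM with PTUPB and 21.7 FPKM with DMSO. In the translocon, signal peptidase and oligosaccharyl transferase list, 3 of 27 were called higher and 0 lower (median 0.56), against 9.47% of all genes called higher: SRPRA, a subunit of the signal recognition particle receptor, SEC11C of the signal peptidase and SEC61A1, the channel itself, at 371 FPKM with PTUPB and 175 FPKM with DMSO. Vesicle coat and Golgi trafficking genes had 10 of 29 called higher and 0 lower (median 0.72). SEC24D, a cargo adaptor of COPII coats, was 6.87-fold higher (19.1 FPKM with PTUPB and 2.79 FPKM with DMSO), the SNARE gene STX5 differed by log2 1.68, and the cargo receptor pair LMAN1 and MCFD2 differed by log2 1.43 and 1.58.

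The amino acid arm was uneven. Of 20 cytosolic aminoacyl-tRNA synthetase genes 5 were called higher and 1 lower (median 0.43). GARS1, for glycine, had 219.6 FPKM with PTUPB and 59.8 FPKM with DMSO, and SARS1, for serine, had 192 FPKM with PTUPB and 55.00 FPKM with DMSO. WARS1, AARS1 and YARS1, for tryptophan, alanine and tyrosine, differed by log2 1.67, 1.39 and 1.14. The 1 called lower was QARS1, for glutamine, named after its value was seen, at 25.0 FPKM with PTUPB and 53.8 FPKM with DMSO. Amino acid synthesis and one-carbon enzymes had 2 of 19 called higher and 1 lower, with a median of -0.48. These counts lay near or below the shares of all genes, 9.47% higher and 12.7% lower. CTH, which makes cysteine from cystathionine, had 28.8 FPKM with PTUPB and 7.48 FPKM with DMSO, and the aspartate aminotransferase GOT1 had 59.5 FPKM with PTUPB and 24.3 FPKM with DMSO, whereas SHMT1, a serine and glycine interconverting enzyme, was lower at 3.14 FPKM with PTUPB and 9.09 FPKM with DMSO. Among 16 amino acid transporters 3 were called higher and 2 lower (median -0.12), the lower count being near the share of all genes. SLC3A2, the heavy chain shared by several exchangers, was 4.98-fold higher (196 FPKM with PTUPB and 39.3 FPKM with DMSO). SLC7A11, its partner in cystine import, was 4.49-fold higher (69.97 FPKM with PTUPB and 15.6 FPKM with DMSO). SLC43A1, a transporter of large neutral amino acids that is abundant in prostate, was lower at 12.5 FPKM with PTUPB and 42.4 FPKM with DMSO.

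Growth arrest genes and damage-inducible checkpoint genes formed a second group on the higher side. Of 20 growth arrest and translational stress effectors 9 were called higher and 1 lower (median 0.70), and of 25 damage-inducible checkpoint and repair genes 15 were called higher and 1 lower (median 1.19). GADD45A, a stress sensor that arrests growth, had 115 FPKM with PTUPB and 7.21 FPKM with DMSO, a 15.9-fold difference (14.4 to 17.5). CDKN1A, the CDK inhibitor p21 and a member of both lists, had 427 FPKM with PTUPB and 32.8 FPKM with DMSO (13.02-fold, 12.5 to 13.5). SESN2, which restrains mTORC1 when amino acids are short, was 5.09-fold higher (40.6 FPKM with PTUPB and 7.99 FPKM with DMSO). SPATA18, a mitochondrial quality control gene, ZMAT3, an RNA-binding protein gene, and RRM2B, the damage-inducible ribonucleotide reductase subunit, were 11.3-fold, 5.56-fold and 4.63-fold higher. MDM2, a ubiquitin ligase gene, had 33.3 FPKM with PTUPB and 9.87 FPKM with DMSO. Secreted stress factors had 4 of 9 analysed called higher and 0 lower, among them the metabolic hormone FGF21 (20.95 FPKM with PTUPB and 1.48 FPKM with DMSO), INHBE, an inhibin subunit gene (3.29 FPKM with PTUPB and 0.843 FPKM with DMSO), and GDF15 (58.5 FPKM with PTUPB and 26.8 FPKM with DMSO). Only 9 of the 25 secreted factors listed passed the level filter, which averages all 6 libraries. A gene under 1 FPKM in DMSO, such as INHBE, could pass it only through treated libraries. The count of 0 called lower therefore does not describe the 25. In other lists the same filter limit holds for HRK, AKR1C3, DUSP5, BHLHE41, HSPB8, SPATA18, SLC30A2, MAFF, CHST1, DDR2, FGFR2, RELB, IRF1 and NFKBIZ. The counts called higher in those lists are therefore set in part by the filter.

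Apoptosis regulators had 5 of 26 called higher and 4 lower (median 0.21), beside 9.47% and 12.7% of all genes, so the lower count was near that share. HRK, a BH3-only activator of cell death, was 40.97-fold higher (5.800 FPKM with PTUPB and 0.142 FPKM with DMSO). BIRC2, an inhibitor of apoptosis, was also higher, at 22.6 FPKM with PTUPB and 7.43 FPKM with DMSO. BIRC5, the survivin gene that also serves mitosis, had 0.466 FPKM with PTUPB and 24.1 FPKM with DMSO (51.7-fold lower), and the pro-apoptotic genes BOK and BIK were lower by log2 differences of -2.16 and -1.67.

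The list with the highest median was that of NRF2 targets, glutathione and redox enzymes, at 1.51, with 13 of 23 called higher and 1 lower. GCLM, the modifier subunit of the first enzyme of glutathione synthesis, had 169.7 FPKM with PTUPB and 10.2 FPKM with DMSO, a 16.7-fold difference (15.9 to 17.6). FTH1, the ferritin heavy chain, had 1398 FPKM with PTUPB and 110.1 FPKM with DMSO. HMOX1, heme oxygenase, was 6.02-fold higher at 43.6 FPKM with PTUPB and 7.25 FPKM with DMSO. AKR1C3, an aldo-keto reductase that makes active androgens and prostaglandins, had 597 fragments with PTUPB and 9 with DMSO (5.58 FPKM with PTUPB and 0.0664 FPKM with DMSO). OSGIN1, an oxidative stress-induced growth inhibitor, was 8.96-fold higher. ME1, the cytosolic malic enzyme that yields NADPH, had 79.2 FPKM with PTUPB and 14.3 FPKM with DMSO, and IDH1, another NADPH source, had 262 FPKM with PTUPB and 113 FPKM with DMSO.

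Autophagy genes had 10 of 28 called higher and 0 lower (median 0.64). SQSTM1, the cargo receptor p62, had 230.4 FPKM with PTUPB and 26.00 FPKM with DMSO (8.86-fold). OPTN, another cargo receptor, was 10.7-fold higher (32.5 FPKM with PTUPB and 3.02 FPKM with DMSO), and MAP1LC3B, which coats autophagosomes, was 4.96-fold higher. WIPI1 and GABARAPL1, which act in autophagosome formation, differed by log2 1.93 and 1.56. Lysosome genes had 6 of 31 called higher and 1 lower (median 0.55), led by GPNMB. PSAP, the saposin precursor, had 1519.7 FPKM with PTUPB and 527 FPKM with DMSO, and the peptidase TPP1 had 36.3 FPKM with PTUPB and 12.3 FPKM with DMSO. Proteasome subunits stayed near their DMSO level: 1 of 31 was called higher and 0 lower (median 0.23), PSMD8 at 90.2 FPKM with PTUPB and 44.5 FPKM with DMSO. Ubiquitin genes and stress ubiquitin ligases had 6 of 24 called higher and 2 lower, among them the ligase genes RNF185 (log2 1.99) and NEDD4 (1.80) on the higher side and SKP2, which promotes S-phase entry, on the lower (-1.80).

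Cytosolic heat shock genes lay apart from their counterparts in the reticulum. Of 22 analysed, 3 were called higher and 6 lower, and the median difference was -0.43, against 0.63 for the chaperones of the reticulum. HSPB1, the small heat shock protein HSP27, had 28.7 FPKM with PTUPB and 312 FPKM with DMSO (10.9-fold lower, 10.2 to 11.6). HSPA1B, the stress-inducible cytosolic HSP70, had 5.68 FPKM with PTUPB and 26.5 FPKM with DMSO. HSPE1, the mitochondrial co-chaperonin that the list also holds, had 5.95 FPKM with PTUPB and 27.8 FPKM with DMSO. The members called higher were led by DNAJB4 (11.3 FPKM with PTUPB and 1.79 FPKM with DMSO), an HSP40 co-chaperone gene, and HSPB8 (5.52 FPKM with PTUPB and 0.702 FPKM with DMSO), a small heat shock protein that works in chaperone-assisted autophagy. Mitochondrial chaperones, proteases and import genes had 1 of 27 called higher, the chaperone HSPA9 (112 FPKM with PTUPB and 48.4 FPKM with DMSO), and 1 lower, HSPE1 (median -0.17). Both counts lay below the 9.47% and 12.7% of all genes.

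Genes of cell division held the lowest median of all lists. Of 32 G2/M and mitosis genes 31 were called lower and 0 higher (median -2.88), and of 31 genes of G1/S and DNA replication 24 were called lower and 0 higher (median -1.55). MKI67, the proliferation marker Ki-67, had 0.932 FPKM with PTUPB and 12.3 FPKM with DMSO (13.2-fold lower, 11.7 to 14.9). HMMR, a spindle protein gene, had 0.269 FPKM with PTUPB and 23.3 FPKM with DMSO, and TOP2A, the topoisomerase that untangles chromosomes, had 0.243 FPKM with PTUPB and 16.8 FPKM with DMSO. AURKB, the chromosomal passenger kinase, had 0 fragments with PTUPB and 871 with DMSO, at least 229-fold lower. In the G1/S list TK1, the thymidine salvage kinase, had 2.59 FPKM with PTUPB and 75.03 FPKM with DMSO. CCND1, cyclin D1, had 5.09 FPKM with PTUPB and 52.3 FPKM with DMSO (10.3-fold lower). RRM2, the S-phase ribonucleotide reductase subunit, had 12 fragments with PTUPB and 1352 with DMSO, while its damage-inducible paralog RRM2B, above, was higher. CDC45, a part of the replicative helicase, was 15.96-fold lower, and UHRF1, which maintains DNA methylation, was 38.8-fold lower.

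DNA repair genes had 2 of 29 called higher and 10 lower (median -0.29). The nuclease EXO1, the Fanconi anaemia genes FANCD2 and FANCI, and BRCA1 were lower by log2 differences of -2.12, -2.10, -1.97 and -1.75. XPC, which detects helix-distorting lesions, was higher at 31.8 FPKM with PTUPB and 8.23 FPKM with DMSO. Histone genes lay on both sides, with 5 of 13 called higher and 2 lower (median 0.64). The linker histone gene H1-2 had 228 FPKM with PTUPB and 46.3 FPKM with DMSO, and the core histone genes H2AC6, H2BC4 and H2BC5 differed by log2 1.96, 1.89 and 1.78, whereas H2AX, the variant marked at DNA breaks, had 12.01 FPKM with PTUPB and 73.7 FPKM with DMSO. Chromatin regulators had 0 of 29 called higher and 4 lower (median -0.21), a share near the 12.7% called lower among all genes. DNMT1, the maintenance DNA methyltransferase, had 3.44 FPKM with PTUPB and 12.5 FPKM with DMSO.

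MYC had 2.48 FPKM with PTUPB and 98.5 FPKM with DMSO, 39.7-fold lower (95% interval 34.2 to 46.3). It encodes a transcription factor that drives growth and ribosome production. Of the 29 genes in the list of nucleolar ribosome biogenesis and MYC-linked genes, which includes MYC, 6 were called lower and 0 higher (median -0.44). BOP1, a factor of large subunit assembly, had 4.602 FPKM with PTUPB and 23.3 FPKM with DMSO, and the box C/D ribonucleoprotein genes NOP56 and NOP58 differed by log2 -1.74 and -1.19. Ribosomal protein genes had 0 of 32 called in either direction (median 0.12), with RPS27L, a paralog of RPS27, the highest at log2 0.95 and RPL22 the lowest at -0.94. Translation factors had 2 of 27 called higher and 2 lower (median -0.03), both below the 9.47% and 12.7% of all genes. EIF1 and EIF5, which act in start codon choice, had 276 and 74.9 FPKM with PTUPB and 98.1 and 28.3 FPKM with DMSO. EEF2K, the kinase that slows elongation, and EIF5A, the elongation factor that carries hypusine, were lower by log2 differences of -1.75 and -1.24. Splicing factors had 1 of 28 called higher and 8 lower (median -0.55). SRSF1 had 3.35 FPKM with PTUPB and 19.7 FPKM with DMSO, SRSF2 had 10.8 FPKM with PTUPB and 46.8 FPKM with DMSO, and HNRNPM, HNRNPA1 and HNRNPA2B1 differed by log2 -1.93, -1.63 and -1.56.

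**Figure D3:**
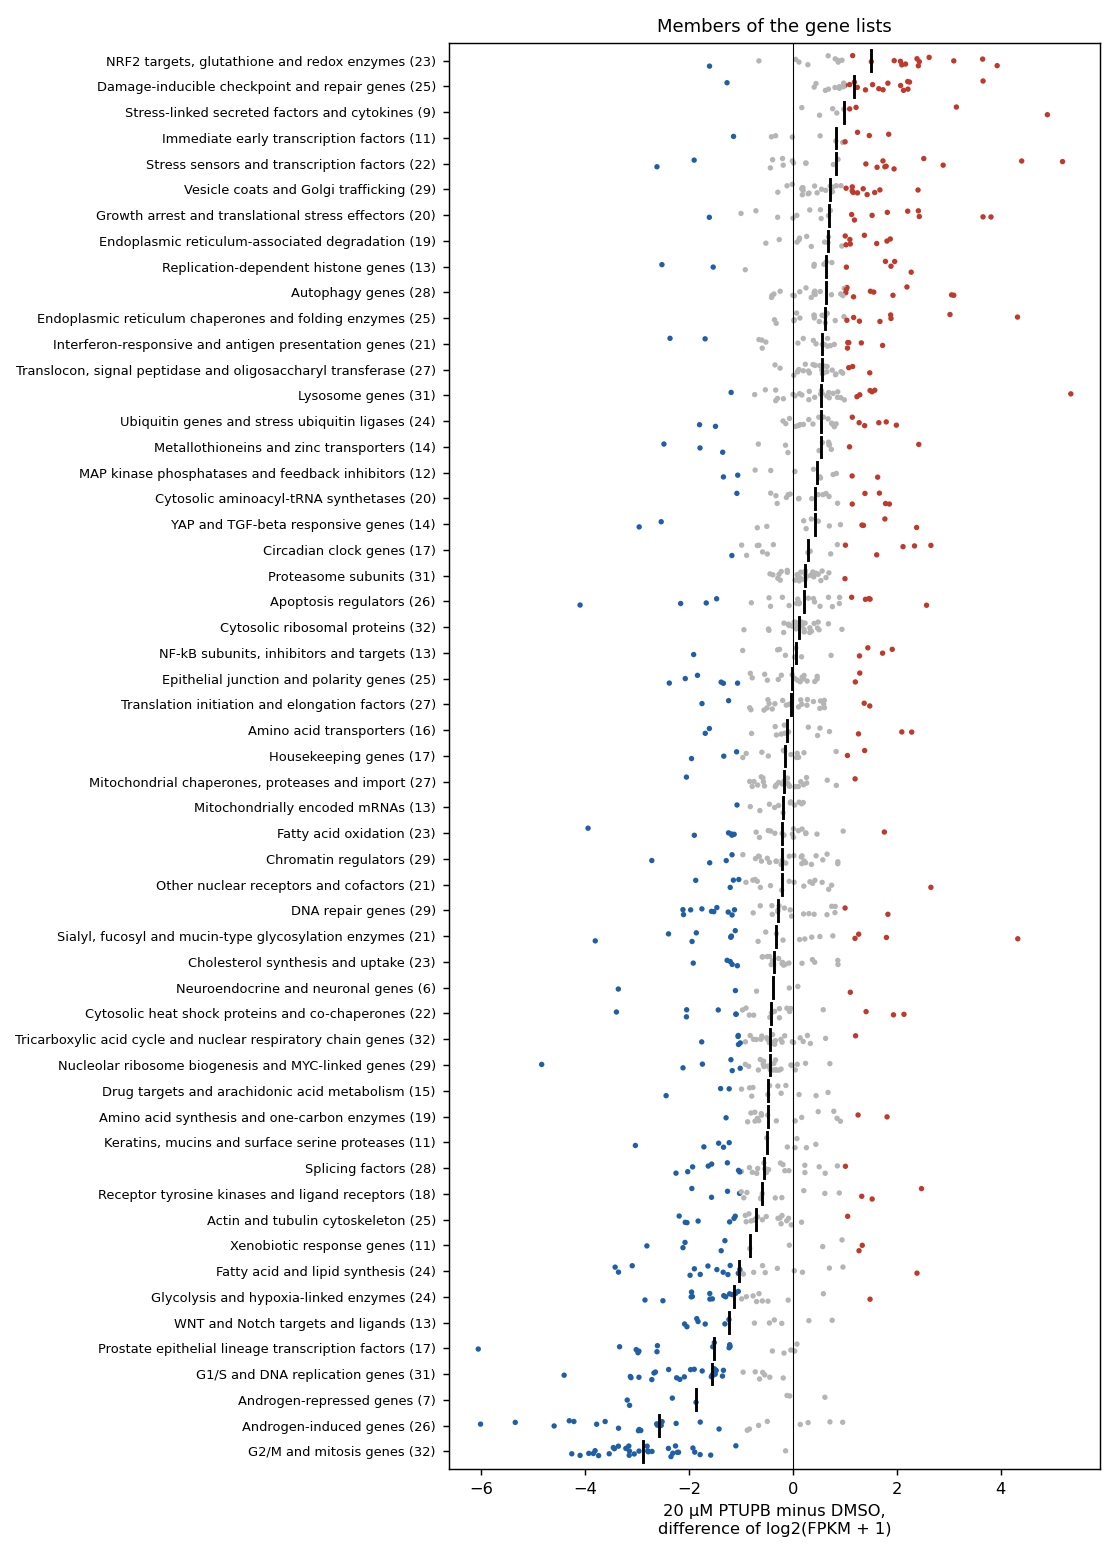
Difference of log2(FPKM + 1), 20 uM PTUPB minus DMSO, for each analysed member of the 55 gene lists (number of members in parentheses), ordered by the list median, shown as a black bar. Red points lie at 1 or more and blue points at -1 or less. The medians run from 1.51 for NRF2 targets, glutathione and redox enzymes at the top to -2.88 for G2/M and mitosis genes at the bottom.

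Androgen-induced genes were lower with PTUPB in 18 of 26 analysed and higher in 0 at the threshold, with a median difference of -2.57. TMPRSS2, the surface serine protease gene that fuses with ERG in many prostate cancers, had 5.999 FPKM with PTUPB and 137 FPKM with DMSO (22.9-fold lower, 21.4 to 24.5). SLC45A3, a prostate-restricted transporter gene, had 4.34 FPKM with PTUPB and 128 FPKM with DMSO, and PLPP1, a phospholipid phosphatase gene, had 11.5 FPKM with PTUPB and 231 FPKM with DMSO. FKBP5, whose product is an immunophilin bound to steroid receptor complexes, was 9.73-fold lower (3.64 FPKM with PTUPB and 35.4 FPKM with DMSO). Members on the side of higher values stayed under the threshold, up to a difference of 0.96. Of 15 genes listed as repressed by androgen 7 passed the level filter, and 4 of them were called lower and 0 higher (median -1.86). Their median was -0.23 without the filter and -0.61 with a pseudocount of 5 FPKM. UGT2B15, an enzyme that glucuronidates androgens, rested on 9 fragments with PTUPB and 608 with DMSO (0.183 FPKM with PTUPB and 9.79 FPKM with DMSO), UGT2B11 on 9 with PTUPB and 649 with DMSO, and UGT2B17 was at 0 FPKM with PTUPB and 2.64 FPKM with DMSO. DDC, which makes dopamine and serotonin, had 0.148 FPKM with PTUPB and 4.74 FPKM with DMSO.

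Transcription factors of the prostate epithelial lineage had 12 of 17 called lower and 0 higher (median -1.51), and without the level filter their median was -0.42. FOXA1, a pioneer factor that opens chromatin, had 7.69 FPKM with PTUPB and 86.7 FPKM with DMSO (11.3-fold lower). HOXB13, a homeobox factor of the prostate, had 8.67 FPKM with PTUPB and 77.2 FPKM with DMSO. SOX4 was 9.96-fold lower. Of 21 other nuclear receptors and cofactors, NR1D2 was the 1 called higher and 4 were called lower (median -0.22), among them NR2F1 at 0.245 FPKM with PTUPB and 3.55 FPKM with DMSO. Neuroendocrine and neuronal genes had 6 members analysed of 25 listed. SYT4, a synaptotagmin gene and the most abundant of them in DMSO, had 43.9 FPKM with PTUPB and 459.7 FPKM with DMSO (10.5-fold lower), DLL3, a Notch ligand, had 2.81 FPKM with PTUPB and 7.21 FPKM with DMSO, and TMEM59L, at 9.49 FPKM with PTUPB and 3.87 FPKM with DMSO, was the 1 called higher.

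Lipid synthesis was lower chiefly in its fatty acid branch. Of 24 fatty acid and lipid synthesis genes 13 were called lower and 1 higher (median -1.04), whereas cholesterol synthesis and uptake had 5 of 23 called lower and 0 higher (median -0.37); the difference between the lists was not tested. FASN, fatty acid synthase, had 33.3 FPKM with PTUPB and 350.4 FPKM with DMSO (10.5-fold lower, 10.3 to 10.8). SREBF1, which encodes the transcription factor that controls fatty acid synthesis, had 12.6 FPKM with PTUPB and 115 FPKM with DMSO. FADS2, a fatty acid desaturase, had 9.29 FPKM with PTUPB and 109 FPKM with DMSO, and ACLY, which supplies acetyl-CoA, had 32.3 FPKM with PTUPB and 130.3 FPKM with DMSO. The single member called higher was ME1. In the cholesterol list TM7SF2, EBP and LSS, all sterol-processing enzymes, differed by log2 -1.92, -1.21 and -1.17, and INSIG1, the sterol-regulated anchor, by -1.07. Fatty acid oxidation genes had 1 of 23 called higher and 6 lower (median -0.21). CPT1A, which admits fatty acids to mitochondria, had 11.2 FPKM with PTUPB and 44.4 FPKM with DMSO, and the lipid-sensing receptor PPARG was higher at 10.3 FPKM with PTUPB and 2.34 FPKM with DMSO.

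Of the enzymes that PTUPB inhibits, PTGS2, cyclooxygenase-2, was at 0 FPKM in both libraries. EPHX2, soluble epoxide hydrolase, had 3.26 FPKM with PTUPB and 8.97 FPKM with DMSO (2.75-fold lower, 2.44 to 3.11). Of 15 analysed genes of drug targets and arachidonic acid metabolism, out of 30 listed, 3 were called lower and 0 higher (median -0.48). PLA2G2A, a secreted phospholipase, had 15 fragments with PTUPB and 326 with DMSO, and PTGES, a prostaglandin E synthase, was at 0 FPKM with PTUPB and 1.62 FPKM with DMSO. ALOX15, a lipoxygenase, and CYP2J2, an epoxygenase, differed by log2 -0.99 and -0.83, under the threshold.

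Glycolysis and hypoxia-linked enzymes had 14 of 24 called lower and 1 higher (median -1.14). LDHA, which turns pyruvate into lactate, had 15.00 FPKM with PTUPB and 114 FPKM with DMSO (7.61-fold lower), PKM, pyruvate kinase, had 33.4 FPKM with PTUPB and 132 FPKM with DMSO, and PGK1, phosphoglycerate kinase, had 49.6 FPKM with PTUPB and 195 FPKM with DMSO. Carbonic anhydrase CA12 had 2.27 FPKM with PTUPB and 17.5 FPKM with DMSO, and CA9, the hypoxia-induced one, had 0 FPKM with PTUPB and 2.82 FPKM with DMSO. Tricarboxylic acid cycle and nuclear respiratory chain genes had 1 of 32 called higher, IDH1, and 5 lower (median -0.44). The lower count was near the 12.7% of all genes. Mitochondrial IDH2 was at 27.4 FPKM with PTUPB and 94.9 FPKM with DMSO. Of 13 mitochondrially encoded mRNAs, MT-CO2, a subunit of cytochrome oxidase, was the 1 called lower (3718 FPKM with PTUPB and 7834 FPKM with DMSO), and the group made up 3.73% of fragments with PTUPB and 4.78% with DMSO.

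Genes of epithelial form and surface were mixed. Junction and polarity genes had 2 of 25 called higher and 6 lower (median -0.01): the tight junction genes CGN and CLDN4 and the plakoglobin gene JUP had 1.73, 12.99 and 21.1 FPKM with PTUPB, against 13.2, 57.8 and 77.9 FPKM with DMSO. Keratins, mucins and surface proteases had 5 of 11 called lower and 0 higher, with KRT19 at 0.834 FPKM with PTUPB and 13.99 FPKM with DMSO and the matriptase gene ST14 at 23.1 FPKM with PTUPB and 63.7 FPKM with DMSO. Cytoskeleton genes had 1 of 25 called higher and 7 lower (median -0.72), among them TAGLN2 and STMN1, which bind actin and tubulin, at differences of -2.19 and -2.07. Sialyl, fucosyl and mucin-type glycosylation enzymes had 4 of 21 called higher and 8 lower, with the sialyltransferase gene ST6GALNAC1 at 0.663 FPKM with PTUPB and 22.2 FPKM with DMSO and UAP1, which makes UDP-N-acetylglucosamine, at 35.9 FPKM with PTUPB and 133 FPKM with DMSO. Metallothioneins and zinc transporters had 2 of 14 called higher and 3 lower: the zinc exporter SLC30A2 was higher (5.603 FPKM with PTUPB and 0.2295 FPKM with DMSO), and SLC30A4 (8.81 FPKM with PTUPB and 53.8 FPKM with DMSO) and the importer SLC39A8 (5.37 FPKM with PTUPB and 20.99 FPKM with DMSO) were lower.

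Receptors and signalling genes also divided. Among 18 receptor tyrosine kinases and related receptors analysed, of 29 listed, 3 were called higher and 4 lower (median -0.60). DDR2 and FGFR2, both called higher, were under 1 FPKM in DMSO, so they passed the level filter only through treated libraries. ERBB2 (HER2) had 9.81 FPKM with PTUPB and 40.6 FPKM with DMSO and FGFR4 had 0.999 FPKM with PTUPB and 4.92 FPKM with DMSO, whereas the collagen receptor DDR2 (7.17 FPKM with PTUPB and 0.468 FPKM with DMSO), FGFR2 (3.54 FPKM with PTUPB and 0.574 FPKM with DMSO) and ROR1 (4.47 FPKM with PTUPB and 1.18 FPKM with DMSO) were higher. WNT and Notch genes had 7 of 13 called lower and 0 higher (median -1.23), and their median was -0.40 without the level filter and -0.66 with a pseudocount of 5 FPKM. The Notch ligands JAG1 and JAG2 had 2.59 and 4.61 FPKM with PTUPB and 11.7 and 19.2 FPKM with DMSO, the Notch targets NRARP and HES1 differed by log2 -2.08 and -1.69, and WNT7B by -2.04. In the list of YAP and TGF-beta responsive genes 4 of 14 were called higher and 2 lower (median 0.42). ID1, ID2 and ID3, targets of BMP signalling, had 19.8, 7.37 and 44.6 FPKM with PTUPB and 5.101, 2.26 and 7.74 FPKM with DMSO. BAMBI, a decoy receptor for BMP and TGF-beta ligands, had 5.52 FPKM with PTUPB and 49.7 FPKM with DMSO, and PMEPA1, a TGF-beta inhibitor that androgen also induces, had 2.21 FPKM with PTUPB and 17.6 FPKM with DMSO.

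The list of immediate early transcription factors had 4 of 11 called higher and 1 lower (median 0.83). Those called higher were JUN and JUNB and the small MAF genes MAFG and MAFF. The AP-1 genes JUN and JUNB had 51.3 and 34.9 FPKM with PTUPB, against 17.9 and 14.2 FPKM with DMSO, MAFG, a partner of NRF2, had 22.1 FPKM with PTUPB and 5.43 FPKM with DMSO, and NR4A1 was lower at 0.702 FPKM with PTUPB and 2.76 FPKM with DMSO. MAP kinase phosphatases and feedback inhibitors had 2 of 12 called higher, DUSP5 and ERRFI1, and 2 lower, TRIB2 and DUSP2, beside 9.47% and 12.7% of all genes. NF-kB subunits, inhibitors and targets had 4 of 13 analysed called higher and 1 lower (median 0.06), out of 24 listed. Of those called higher, RELB, IRF1 and NFKBIZ lay under 1 FPKM in DMSO. They could pass the level filter only through treated libraries, so this count is set in part by the filter. RELB, a subunit of the noncanonical pathway, had 5.47 FPKM with PTUPB and 0.716 FPKM with DMSO, and NFKBIZ, an inducible nuclear cofactor, had 2.66 FPKM with PTUPB and 0.346 FPKM with DMSO. Interferon-responsive and antigen presentation genes had 5 of 21 analysed called higher and 2 lower (median 0.57), out of 32 listed. IRF1 had 3.09 FPKM with PTUPB and 0.236 FPKM with DMSO, and IFITM1 had 0 fragments with PTUPB and 134 with DMSO, at least 35.3-fold lower. Circadian clock genes had 5 of 17 called higher and 1 lower (median 0.29). The repressors NR1D2, NFIL3 and BHLHE41 were 7.903-fold, 6.07-fold and 25.2-fold higher, and BMAL1, the positive arm of the clock, had 9.02 FPKM with PTUPB and 2.27 FPKM with DMSO. Xenobiotic response genes had 2 of 11 called higher and 5 lower, with TIPARP, an AHR-induced ADP-ribosyltransferase, at 9.32 FPKM with PTUPB and 3.09 FPKM with DMSO, CYP1B1 at 0.1197 FPKM with PTUPB and 1.91 FPKM with DMSO, and GSTA1 at 0.748 FPKM with PTUPB and 11.3 FPKM with DMSO.

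Of 17 genes often used as internal standards, 2 were called higher and 3 lower (median -0.16), near the 9.47% and 12.7% of all genes. GAPDH had 251 FPKM with PTUPB and 631 FPKM with DMSO, PPIA had 104 FPKM with PTUPB and 222 FPKM with DMSO, and ACTB had 355 FPKM with PTUPB and 663 FPKM with DMSO, under the threshold. B2M, the light chain of MHC class I, was higher, at 86.3 FPKM with PTUPB and 41.1 FPKM with DMSO.

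The library with 10 uM PTUPB lay far closer to DMSO. In that comparison, which shares the DMSO library with the one above, 210 genes were called higher (1.62%) and 100 lower (0.772%), together 2.39%. HSPA5 had 294, 439.6 and 5919 FPKM at 0, 10 and 20 uM. DDIT3 had 15.97, 26.1 and 359 FPKM at those doses, and ATF3 had 4.62, 5.08 and 205 FPKM. For ATF3 the 10 uM library was near DMSO, whereas HSPA5 and DDIT3 were already higher there by 0.58 and 0.67 on the log2 scale. CDKN1A (32.8, 25.2 and 427 FPKM) and GCLM (10.2, 9.94 and 169.7 FPKM) were at 10 uM no higher than in DMSO. KLK3 had 105, 89.7 and 0.648 FPKM and MKI67 12.3, 11.3 and 0.932 FPKM, so that most of their difference lay between 10 and 20 uM. FASN had 350.4, 126 and 33.3 FPKM, with a difference of -1.47 already at 10 uM. Of the 250 named genes called at 20 uM, 14 were past the threshold at 10 uM, in either direction. MAB21L4 (-1.58), PGK1 (-1.33) and FKBP5 (-1.29) were lower at both doses, as FASN was. UGT2B15, in contrast, was higher at 10 uM (1.42) and lower at 20 uM (-3.19). By list, the medians at 10 uM were 0.42 for chaperones of the reticulum, 0.42 for its degradation genes, -0.05 for damage-inducible checkpoint genes, -0.08 for NRF2 targets, -0.40 for G2/M genes, -0.25 for androgen-induced genes and -0.59 for glycolysis enzymes. Mitochondrially encoded mRNAs had a median of 1.07 at 10 uM and -0.19 at 20 uM. Their share of fragments was 4.78% with DMSO and 9.12% with 10 uM PTUPB. It was 9.48% with enzalutamide and 10.4% with 10 uM PTUPB plus enzalutamide. The DMSO library, used in both differences, was thus the lowest of the libraries without 20 uM PTUPB.

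**Figure D4:**
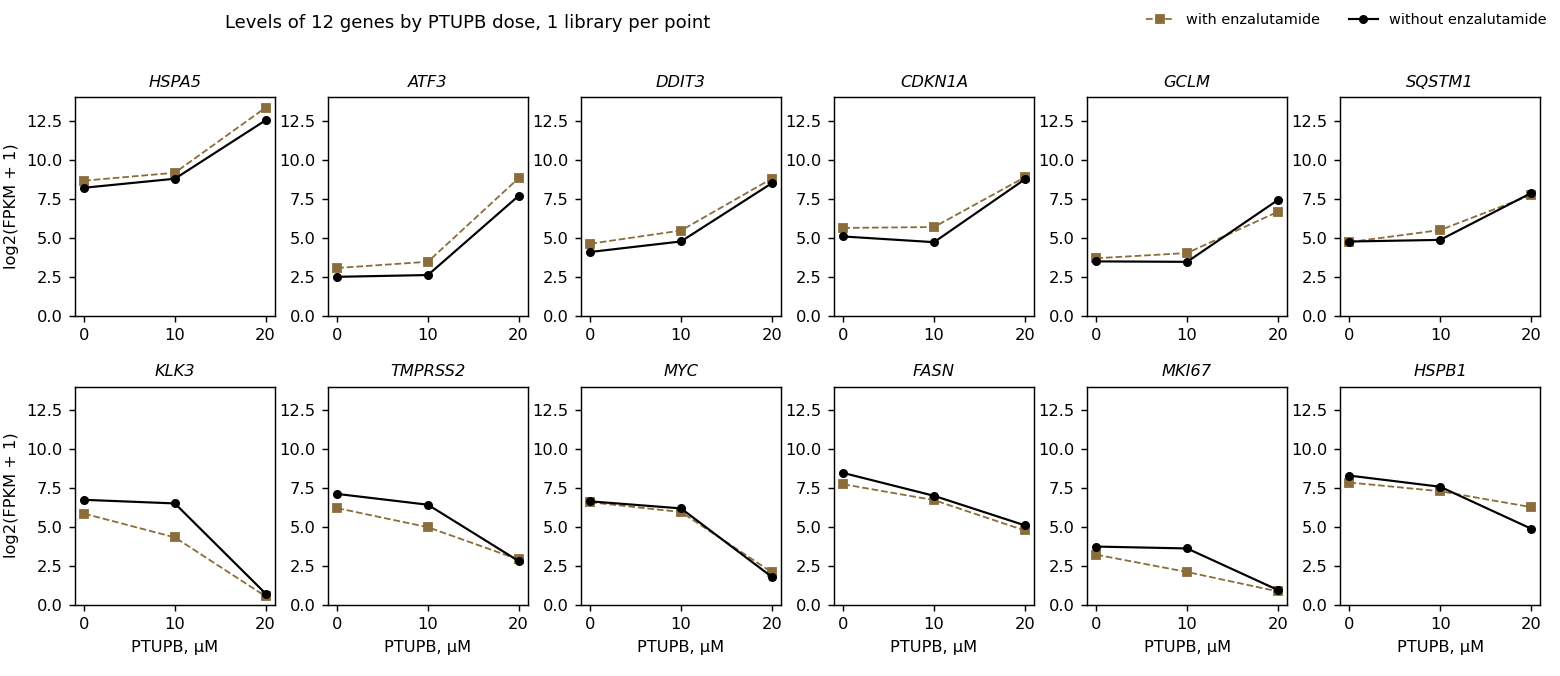
Level, as log2(FPKM + 1), of 12 genes at PTUPB doses of 0, 10 and 20 uM, without enzalutamide (black circles, solid line) and with it (brown squares, dashed line), 1 library per point. The top row holds genes higher at 20 uM and the bottom row genes lower at 20 uM, and FASN is the gene of the bottom row with the largest step at 10 uM without enzalutamide, a difference of -1.47.

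A second pair of libraries, 20 uM PTUPB plus enzalutamide against enzalutamide, shares no library with the first. In it 1752 genes were called higher (13.5%) and 2047 lower (15.8%), together 29.3%. The median difference was 0.01, which the scaling again largely fixes. Of the 250 named genes past the threshold in PTUPB against DMSO, 248 had the same sign in the second pair and 203 were past the threshold there in the same direction. The genes were named by their size in the first pair, so this count describes them and is not compared with a chance level. HSPA5 had 10392 FPKM with PTUPB plus enzalutamide and 403 FPKM with enzalutamide (25.8-fold), ATF3 had 450.5 FPKM with PTUPB plus enzalutamide and 7.32 FPKM with enzalutamide (61.6-fold) and DDIT3 440.3 FPKM with PTUPB plus enzalutamide and 23.5 FPKM with enzalutamide (18.7-fold). KLK3 was at 0.458 FPKM with PTUPB plus enzalutamide and 56.6 FPKM with enzalutamide, and MYC at 3.27 FPKM with PTUPB plus enzalutamide and 94.5 FPKM with enzalutamide. These 5 genes stood on the same side in both pairs. With 10 uM PTUPB plus enzalutamide they had 574 (HSPA5), 9.99 (ATF3), 43.00 (DDIT3), 19.02 (KLK3) and 60.9 (MYC) FPKM.

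Some groups and genes differed in size or side between the pairs, and no difference between pairs was tested. G2/M genes had a median of -1.77 with PTUPB plus enzalutamide over enzalutamide, against -2.88 in the first pair, and CDC20, the mitotic activator of the anaphase-promoting complex, differed by -0.82 and -3.93 in that order of pairs. Androgen-induced genes had a median of -1.74 in the second pair, and FKBP5 had 3.73 FPKM with PTUPB plus enzalutamide and 6.21 FPKM with enzalutamide, a level far below the 35.4 FPKM of DMSO in both. NRF2 and redox genes had a median of 0.96 in the second pair. Lysosome genes had 2 of 31 called higher and 6 lower there (median 0.15), where 13.5% of all genes were called higher and 15.8% lower. The lower count was near that share. In the first pair 6 were called higher and 1 lower (median 0.55), so the list median was positive in both pairs. SLC7A11 had 28.7 FPKM with PTUPB plus enzalutamide and 25.1 FPKM with enzalutamide, a difference of 0.19 against 2.10 in the first pair. Cytosolic heat shock genes had a median of 0.21 in the second pair, and HSPA1B differed there by -0.07. Mitochondrially encoded mRNAs had a median of -1.14 in the second pair, beside the share of such fragments, 3.68% with PTUPB plus enzalutamide and 9.48% with enzalutamide; the part of this share in other differences was not tested. ID1 and NR4A1 were the 2 named genes past the threshold in the first pair with the opposite sign in the second: ID1 had 5.08 FPKM with PTUPB plus enzalutamide and 7.44 FPKM with enzalutamide, and NR4A1 had 2.06 FPKM with PTUPB plus enzalutamide and 1.17 FPKM with enzalutamide. ACTB, under the threshold in both pairs, had 1035 FPKM with PTUPB plus enzalutamide and 632 FPKM with enzalutamide (log2 0.71, against -0.90 in the first pair).

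**Figure D5:**
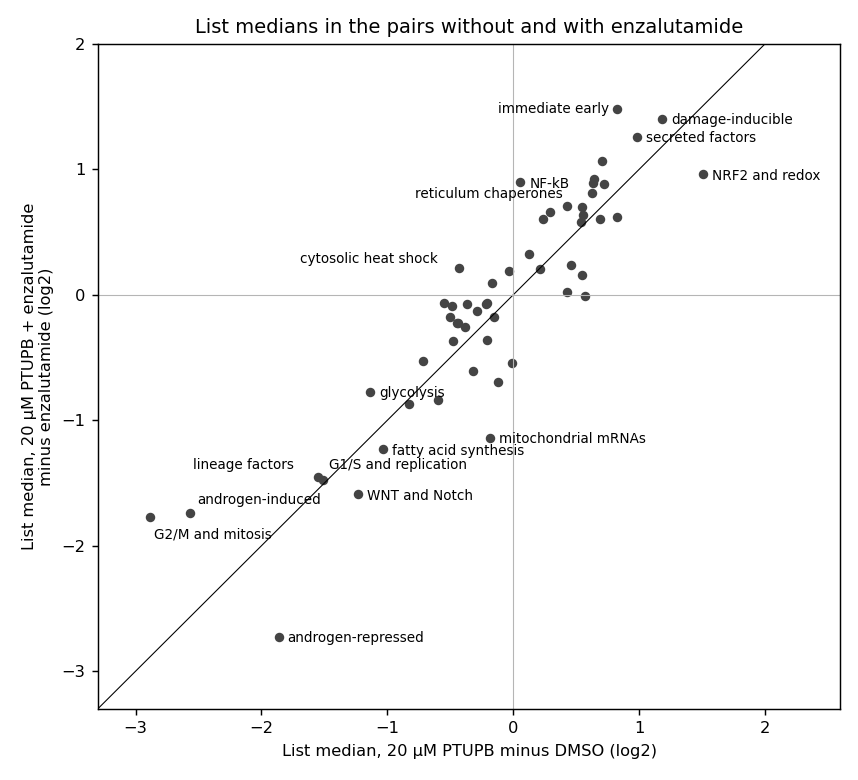
Median difference of each of the 55 gene lists in the pair with enzalutamide (20 uM PTUPB plus enzalutamide minus enzalutamide, vertical axis) against that in the pair without it (20 uM PTUPB minus DMSO, horizontal axis), in log2 units, with the line of equal difference. G2/M genes lie at -2.88 and -1.77 on the horizontal and vertical axes and mitochondrially encoded mRNAs at -0.19 and -1.14.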

How the data were processed

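RNA was sequenced from C4-2B MDVR cells as paired-end mRNA libraries, 1 per group, per the labels' protocols. The authors deposited FPKM per gene. HISAT and Cufflinks are named per the submitters' processing notes, with no version, while a genome build was not given in the sources used here. All 58735 gene identifiers matched GENCODE 29, and 58207 were found under a current name. FPKM multiplied by exon length fell on whole multiples of 1 step per library for 100% of values, within 0.05 fragments, which gave fragments per gene and the depth of 20156523 to 29450436 fragments. The deposited scale of each library equalled median-of-ratios size factors computed from these fragments, to within 0.01%.

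Differences are of log2(FPKM + 1), a scale that understates changes of genes near 1 FPKM. A fold is the ratio of FPKM without a pseudocount, with an exact Clopper-Pearson 95% interval on fragments that covers counting error only. With 1 library per group no test was run, and a gene is called at log2 1. Genes were named by rule: the 12 protein-coding genes per direction with the largest difference and at least 50 fragments in the higher library, up to 5 per list by size, and a fixed set of 13. This gave 283 genes. Values of some of them are not reported here. The 55 lists hold 1359 distinct symbols, of which 4 found no match and 2 name the same gene. Members, lists and fixed genes were chosen with earlier results of these data known. Alternatives were another pseudocount, filter or scaling. Python 3.11.15, numpy 2.4.6, pandas 2.3.3, scipy 1.17.1 and matplotlib 3.10.9 were used, and scripts were tested on simulated data.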

Additional observations from a re-analysis of the deposited data

How the results depend on the processing

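With a pseudocount of 5 FPKM, 466 genes were called higher with 20 uM PTUPB and 636 lower. With genes of mean FPKM of 5 or more only, 695 were called higher and 894 lower out of 7256 tested, the smaller number tested being part of the construction. The other planned settings gave 1702 higher and 2267 lower (pseudocount 0.1), 1636 and 2027 (no filter, 31321 genes), 1559 and 2166 (TPM) and 1163 and 1796 (total fragments, where the median over all genes was -0.05). A further 2 settings were chosen after seeing the data: protein-coding genes alone gave 899 and 1305, and genes with at least 50 fragments in the higher library 1096 and 1452. Median-of-ratios size factors returned the deposited values, with 1227 and 1640 called, so they were no separate check. No list median or named gene past the threshold changed sign under the other planned settings, where the minimum of 5 FPKM left 53 of 55 lists and 238 of 282 named genes to compare. List medians that passed below log2 1 in size with a pseudocount of 5 were those of damage-inducible checkpoint genes (0.82), fatty acid synthesis (-0.79), glycolysis (-0.87), androgen-repressed genes (-0.61) and WNT and Notch genes (-0.66). Without a filter, androgen-repressed genes (-0.23), lineage factors (-0.42) and WNT and Notch genes (-0.40) did so. Among 282 named genes, 63 fell under the threshold with a pseudocount of 5. No paired analysis was possible because each group has 1 library and the labels carry no replicate numbers, and for the same reason no replicate could be left out.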

Other observations

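Long intergenic noncoding genes and antisense genes held a larger share of calls upward than protein-coding genes did. Of 423 long intergenic noncoding genes 76 were called higher (17.97%) and 51 lower (12.1%), and of 557 antisense genes 74 were higher and 64 lower, against 899 higher (8.41%) and 1305 lower (12.2%) of 10693 protein-coding genes. The median number of fragments in the higher of the PTUPB and DMSO libraries was 97 for long intergenic genes, 75 for antisense genes and 1324 for protein-coding genes. Small RNA genes rested on few fragments in these mRNA libraries. Of 101 microRNA genes 18 were called higher and 38 lower at a median of 7 fragments, and of 91 small nucleolar RNA genes 13 were higher and 25 lower at a median of 10. The differences between gene types were not tested. The 10 most abundant genes took 8.93% of fragments with 20 uM PTUPB and 6.89% with DMSO.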
